A study of Homo sapiens with 9 samples.

Results

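The genes described here are 6 genes of the retinoic acid response, chosen by symbol: the receptor genes RARA, RARB and RARG, and the feedback genes CYP26A1, CYP26B1 and DHRS3. The cells were NCCIT, an established line from a human germ cell tumour of the embryonal carcinoma type, whose pluripotent cells aggregate and start to differentiate as embryoid bodies when grown in suspension. Of the 6 genes, 5 had a transcript cluster (the array's unit of measurement, a set of probes for one locus) of their own, against 18417 genes in all, and 4 were bright enough to be tested among 12254 genes. The 9 arrays comprised 1 of undifferentiated cells and 8 of embryoid bodies, and each condition had 1 array. At day 7 and again at day 21 there was 1 array of untreated embryoid bodies, 1 with 50 mM ethanol, 1 with an additive the labels call FA, and 1 with both. The labels used here neither spell out FA nor give its dose, so the name is kept as it stands. All arrays came from the same line, and the protocol in the labels describes suspension culture for 7 days with a daily change of medium but not how the longer cultures were kept. Nothing states that the arrays came from separate cultures, so the p-values rest on how far these arrays vary among themselves, and that variation may be technical.

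Retinoic acid, made from vitamin A by successive oxidation, enters the nucleus and binds the receptors RARA, RARB and RARG, which sit on DNA as pairs with an RXR receptor and switch target genes on when the ligand is present. Some of the targets limit the signal: CYP26A1 and CYP26B1 are cytochrome P450 enzymes that hydroxylate retinoic acid for breakdown, and DHRS3 reduces retinaldehyde back to retinol, which removes the precursor. RARB is itself a well known target of the pathway. Embryonal carcinoma cells are a classic system for the response, in which retinoic acid drives differentiation and the ordered activation of HOX genes.

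RARB and CYP26A1 hold the DNA element that the receptor pair is best known to bind, and their promoters are printed for that reason, not for the size of their rise. The element is a direct repeat of 2 hexamers with 5 bases between them. The hexamers searched were AGGTCA and its variants, which were the form AGTTCA as well as the form GGGTCA together with the form GGTTCA, on both strands, in RefSeq windows of 300 bases (250 before and 50 after each annotated transcription start, GRCh38.p14). In the stretches below, the 120 bases before a start, capitals mark only the hexamers of the repeat. A single GGGTCA outside the repeat in RARB is left in lower case. The RARB stretch lies on the plus strand at chr3:25428143-25428262 and the CYP26A1 stretch on the plus strand at chr10:93073773-93073892. In RARB the repeat reads along the gene's own strand, and in CYP26A1 it reads along the opposite strand.
RARB: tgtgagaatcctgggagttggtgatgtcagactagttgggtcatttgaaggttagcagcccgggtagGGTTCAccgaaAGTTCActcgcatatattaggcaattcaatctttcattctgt
CYP26A1: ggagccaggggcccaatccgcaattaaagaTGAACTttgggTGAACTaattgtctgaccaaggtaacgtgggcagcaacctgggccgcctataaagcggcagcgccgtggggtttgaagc

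The repeat spans bases -53 to -37 from the RARB start and bases -90 to -74 from the CYP26A1 start. Read on the strand of the match, the CYP26A1 element is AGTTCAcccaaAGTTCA. The RefSeq set listed 14 windows for the 6 genes, which were all matched by symbol: 4 for RARB, 3 each for RARA (chromosome 17) and DHRS3 (chromosome 1), 2 for CYP26A1 and 1 each for RARG (chromosome 12) and CYP26B1 (chromosome 2). Of these, 2 held the repeat, 1 of RARB and 1 of CYP26A1, and the letters searched were not found as a repeat in the windows of the other genes. Of all 35116 windows listed, 31 (0.0883%) held it, in 29 genes, whereas a single hexamer was present in 38.6% of windows. The same hexamers spaced by 1 or 2 bases occurred in 0.131% and 0.0399% of windows and in none of the 14.

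RARB, CYP26B1, CYP26A1 and DHRS3 were all far higher at day 21 than at day 7, with or without ethanol and FA, while RARG was below the median of all values on every array. Values are log2 expression values after RMA, the authors' normalization, and differences are in log2 units with the standard error (SE) of the fit. The fit was one additive model in limma over the 9 arrays, with terms for ethanol, FA, day and the undifferentiated array, and p-values were adjusted for 12254 genes by Benjamini-Hochberg. A gene was tested if its highest array exceeded the median of all values, 7.71. RARB and CYP26B1 were below that level on all arrays but those of day 21, so they were tested only because of day 21 and the number of members called carries no weight for these 2 genes. In bulk RNA, more cells that express a gene and more RNA per cell cannot be told apart.

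RARB showed the largest rise of the receptors. Its value was 6.46 in undifferentiated cells. At day 7 it was 6.71 untreated, 6.60 with ethanol, 6.69 with FA and 6.88 with both. At day 21 it was 11.42 untreated, 11.36 with ethanol, 11.39 with FA and 11.37 with both. The 4 arrays of day 21 lay close together (mean 11.39 ± 0.03, SD over the 4 treatments) and the lowest of them was 4.47 above the highest of day 7. Day 21 exceeded day 7 by 4.66 ± 0.07 (SE), or 25.3-fold (limma, adjusted p = 7.9e-09), the fifth largest increase of the genes tested. In single pairs of arrays that shared a treatment the fold was 26.2 untreated, 27.0 with ethanol, 26.1 with FA and 22.4 with both.

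**Figure D1:**
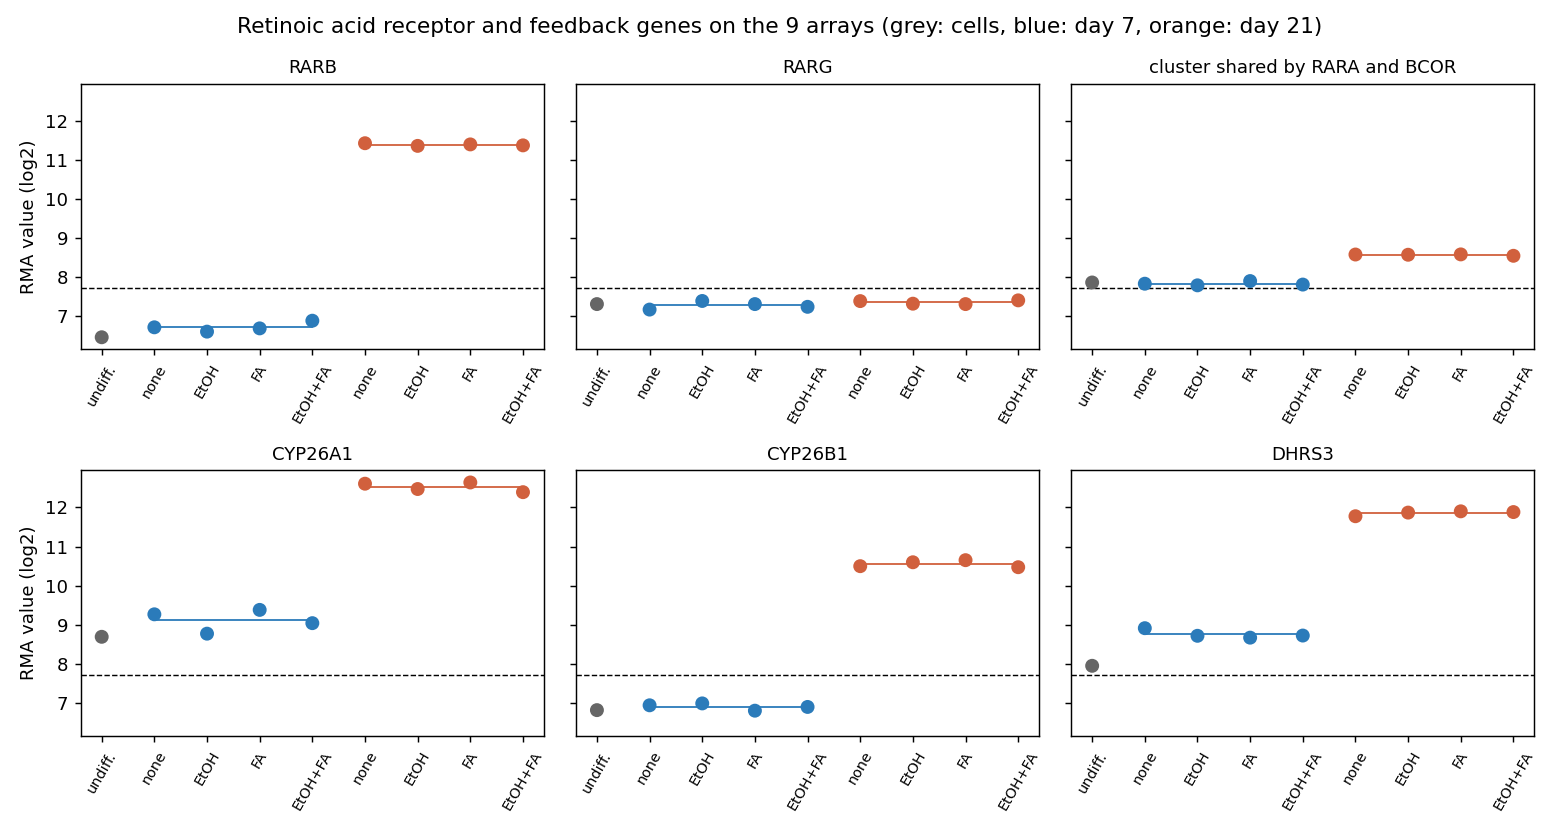
RMA values (log2, vertical axis) of each gene on the 9 arrays; grey is undifferentiated cells, blue day 7 and orange day 21, lines are the means of the 4 arrays of a day, and the dashed line is the median of all values (7.71). RARB, CYP26A1, CYP26B1, DHRS3 and the cluster shared by RARA and BCOR separate the days with no overlap. RARG stays below the dashed line on all arrays. Of all genes tested, 24.6% had every day 21 array above every day 7 array.

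RARG and the cluster that covers RARA behaved differently. RARG, the gamma receptor gene, had a value of 7.31 in undifferentiated cells. At day 7 it was 7.17 untreated, 7.39 with ethanol, 7.31 with FA and 7.24 with both, and at day 21 it was 7.39, 7.32, 7.31 and 7.40. The days overlapped and the span over all 9 arrays was 0.24. Because it never passed the median of all values it was not tested in the fit; without the filter the day difference was 0.08 ± 0.06 (limma, adjusted p = 0.34), with a 95% confidence interval from -0.07 to 0.22. RARA had no cluster of its own. The cluster that lists it (8007084) is annotated to RARA and to BCOR, a corepressor gene on another chromosome, and is therefore not taken as a measurement of RARA, although all 4 of its RefSeq transcripts belong to RARA. It read 7.86 in undifferentiated cells, 7.79 to 7.90 at day 7 and 8.54 to 8.58 at day 21, without overlap. Added to the fit as a row of its own, after its values were seen, it rose by 0.74 ± 0.05 or 1.67-fold (limma, adjusted p = 8.3e-06). The separate cluster of BCOR did not share that pattern, with 9.63 to 9.77 at day 7 and 9.33 to 9.46 at day 21.

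Both retinoic acid hydroxylase genes rose with day. CYP26A1 read 8.69 in undifferentiated cells. At day 7 its values were 9.27 untreated, 8.77 with ethanol, 9.38 with FA and 9.04 with both, and at day 21 they were 12.61, 12.47, 12.64 and 12.39 in the same order. The rise was 3.41 ± 0.07, or 10.7-fold (limma, adjusted p = 5.3e-08), and 3.26 to 3.70 in single pairs. CYP26B1 read 6.82 in undifferentiated cells and 6.94 untreated, 6.99 with ethanol, 6.80 with FA and 6.90 with both at day 7, and then 10.50, 10.60, 10.65 and 10.47 at day 21. That rise was 3.65 ± 0.06, or 12.5-fold (limma, adjusted p = 2.4e-08), with 11.8-fold to 14.4-fold in single pairs. The third member of the family, CYP26C1, was bright enough to be tested and its day difference was 0.01 ± 0.05 (limma, adjusted p = 0.92).

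DHRS3, the retinaldehyde reductase gene, also rose with day. It read 7.95 in undifferentiated cells. At day 7 it was 8.91 untreated, 8.72 with ethanol, 8.67 with FA and 8.72 with both, all above the undifferentiated array, and at day 21 it was 11.78, 11.87, 11.90 and 11.88. The day difference was 3.10 ± 0.07, or 8.59-fold (limma, adjusted p = 5.3e-08), and 7.28-fold to 9.40-fold in single pairs.

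These increases were among the largest of the genes tested, but a rise with day was in itself common. All 4 members tested were higher at day 21, against 26.3% of genes called higher and 22.6% called lower (48.9% in either direction), and against 24.6% of genes whose day 21 arrays all lay above their day 7 arrays. Since RARB and CYP26B1 were tested only because of day 21, this count and those below carry no weight for them. After centring on array medians the genes called were 3841 higher and 2106 lower, against 3224 and 2771 with the values as deposited, and the 4 members kept their calls. An increase of at least 8-fold in each of the 4 pairs was seen in RARB, CYP26A1 and CYP26B1 and in 0.261% of genes. CYP26B1, CYP26A1 and DHRS3 had the 20th, 25th and 40th largest increase.

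By day 7, DHRS3 and CYP26A1 had risen above the undifferentiated cells, whereas RARB and CYP26B1 had not passed the test. The fitted level of untreated embryoid bodies at day 7 exceeded the single undifferentiated array by 0.83 ± 0.12 for DHRS3, a 1.77-fold rise (limma, adjusted p = 0.0061), and by 0.53 ± 0.13 for CYP26A1, a 1.45-fold rise (limma, adjusted p = 0.025). The differences were 0.23 ± 0.11 for RARB (limma, adjusted p = 0.19), with a 95% confidence interval from -0.03 to 0.50, and 0.11 ± 0.11 for CYP26B1 (limma, adjusted p = 0.56), with an interval from -0.15 to 0.36. Whether these 4 steps differ from one another was not tested. For RARG, in the fit without the filter, the difference was -0.06 ± 0.11, and for the cluster of RARA and BCOR it was -0.02 ± 0.08. So 2 of the 4 members passed, against 6.68% of genes called higher and 13.9% called lower (20.6% in either direction); centred on array medians the genes called were 553 higher and 2498 lower, against 818 and 1702. In CYP26A1, DHRS3 and RARB all 4 arrays of day 7 lay above the undifferentiated array, as they did in 23.8% of genes.

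The CYP26A1 step kept its size when arrays were left out, but its call did not hold in 3 of these fits. It was 0.49 without the untreated day 7 array (limma, adjusted p = 0.12), 0.50 without the FA array of day 7 (limma, adjusted p = 0.068) and 0.52 without the array of both additives at day 21 (limma, adjusted p = 0.057). The DHRS3 step stayed between 0.69 and 0.88 and past the threshold in the 15 alternative fits run. Between the 2 single untreated arrays it was 0.96.

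By day 21 the same 4 genes were 13.5-fold to 29.8-fold above the undifferentiated array. The fitted differences were 4.90 ± 0.11 for RARB, 3.95 ± 0.13 for CYP26A1, 3.93 ± 0.12 for DHRS3 and 3.76 ± 0.11 for CYP26B1, with limma's adjusted p from 4.8e-07 to 2.2e-06. All 4 passed, against 16.6% of genes called higher and 21.2% called lower (37.8% in either direction). RARB and CYP26B1 were tested only because of day 21, so this count carries no weight for them. The cluster of RARA and BCOR rose by 0.72 ± 0.08 (limma, adjusted p = 0.00042), and RARG differed by 0.02 ± 0.11 (limma, adjusted p = 0.91 without the filter).

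**Figure D2:**
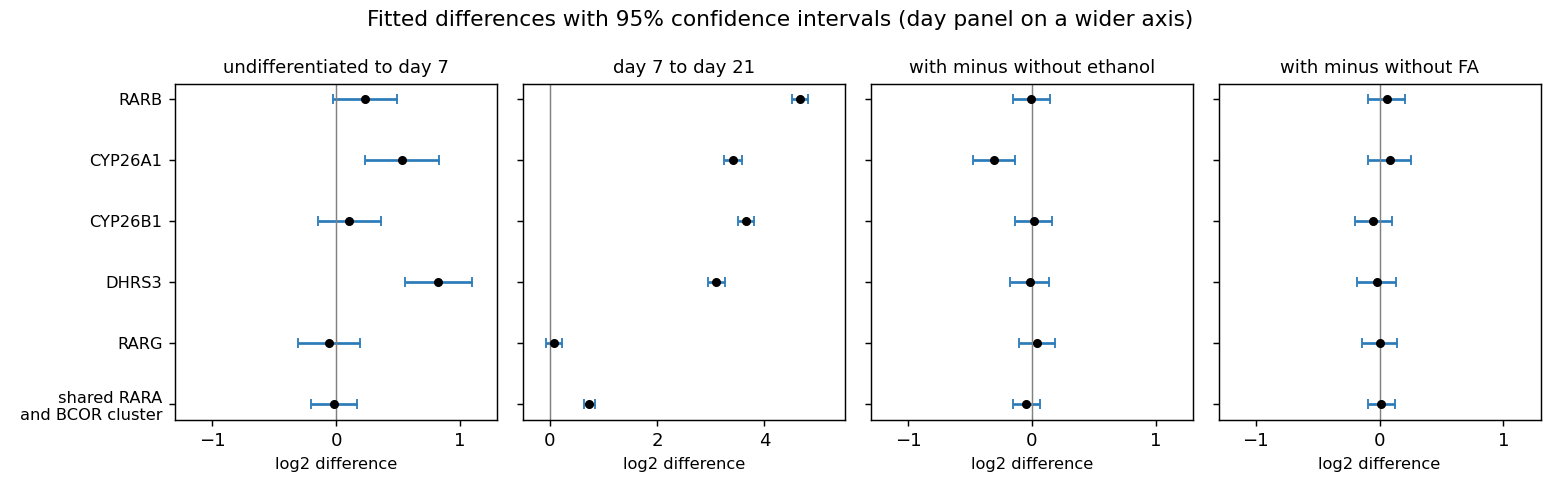
Fitted differences (log2, horizontal axes) with 95% confidence intervals for each gene; the panels show the step to day 7, day 21 against day 7 on a wider axis, ethanol, and FA. RARG comes from the fit without the filter and the shared cluster from the fit to which it was added. The intervals of RARB, CYP26A1, CYP26B1 and DHRS3 for day lie between 2.95 and 4.81, and those for ethanol include 0 except that of CYP26A1, which did not pass after adjustment.

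Ethanol left RARB, CYP26B1 and DHRS3 within narrow bounds, and CYP26A1 was lower with ethanol in all 4 matched pairs without passing the test. At day 7 the CYP26A1 difference was -0.50 in the pair without FA and -0.34 in the pair with it, and at day 21 these were -0.14 and -0.25. The average was -0.30 ± 0.07, or 0.810 of the level without ethanol, with an unadjusted 95% confidence interval from -0.48 to -0.13, and limma's adjusted p = 0.11 (0.079 to 1.00 over the 17 alternative fits). A difference of the same sign in all 4 pairs, lower with ethanol, was seen in 11% of genes. At day 7 the ethanol arrays of CYP26A1, 8.77 and 9.04, both lay below the arrays without ethanol, 9.27 and 9.38, and the same held at day 21.

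RARB, CYP26B1, DHRS3 and RARG moved in both directions between pairs, and the cluster of RARA and BCOR was lower with ethanol in all 4 pairs by small amounts (average -0.04 ± 0.05; limma, adjusted p = 0.67). The average ethanol difference was 0.00 ± 0.07 for RARB, 0.02 ± 0.06 for CYP26B1 and -0.02 ± 0.07 for DHRS3, with limma's adjusted p from 0.92 to 0.99. Their 95% confidence intervals ran from -0.15 to 0.15, from -0.13 to 0.16 and from -0.17 to 0.14. For RARG the difference was 0.04 ± 0.06 in the fit without the filter. None of the 4 members tested passed, against 0.685% of genes called in either direction.

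FA also moved no member past the threshold. The differences were 0.08 ± 0.07 for CYP26A1, 0.06 ± 0.07 for RARB, -0.02 ± 0.07 for DHRS3 and -0.05 ± 0.06 for CYP26B1, and the 95% confidence intervals lay between -0.20 and 0.26. In limma no gene passed for FA (0% of genes called; 121 of 12254 had an unadjusted p under 0.05). The interactions of ethanol with day, of FA with day and of ethanol with FA were tested in turn, and 0 of the 4 members passed. The share of genes called was 0.00816%, 0% and 0%, with 917, 1496 and 100 genes at an unadjusted p under 0.05. For CYP26A1 the ethanol difference at day 21 minus that at day 7 was 0.23 ± 0.13 (limma, adjusted p = 0.84).

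Across the 9 arrays the values of the 4 genes correlated closely, which is mostly the contrast between the days. Pearson's r between them ran from 0.990 (CYP26B1 and DHRS3) to 0.998 (RARB and CYP26B1), as a description over arrays that share one normalization run. Within a day their correlations took both signs, and these are not read because each rests on 4 arrays. Of 1618 genes with a span of at least 1 log2 unit, at least 419 correlated with RARB at r above 0.95, so a high r is common here. The 419 leave out small RNAs, LINC genes and provisional names, which the 1618 include. Those most like RARB were WLS, which carries WNT proteins to the cell surface (r = 0.999), the integrin gene ITGA2 (r = 0.999), CYP26B1, and MYOF (r = 0.998). For CYP26B1 they were the semaphorin receptor gene PLXNA2 (r = 0.999), RARB, MAML3, a Notch coactivator gene (r = 0.998), and ITGA2 (r = 0.998). CYP26A1 was closest to CDON, a surface receptor gene of hedgehog signalling (r = 0.998), PCDH7 (r = 0.997), MED12 (r = 0.997) and PDLIM1 (r = 0.996). DHRS3 was closest to the axon guidance receptor gene ROBO2 (r = 0.998), the kinase gene JAK1 (r = 0.997), GPC6 (r = 0.996) and the embryonic globin gene HBE1 (r = 0.995). RARG, with its span of 0.24, had GABRG3 as the closest at r = 0.745, followed by OSR2 (0.709), LPGAT1 (0.697) and NCOA5 (0.675). The repeat of hexamers with 5 bases between them was found in the promoter windows of none of the 17 genes named here beside the members.

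The partners of the receptors changed much less with day, apart from NRIP1. Of 16 genes of RXR receptors and co-regulators, 12 were tested, and 7 rose and 0 fell between day 7 and day 21, where 26.3% of all genes rose and 22.6% fell (median difference 0.21, against -0.01 for all genes tested). NRIP1, which codes for a corepressor that binds ligand-bound receptors and is itself a retinoic acid target, rose by 2.39 ± 0.10 (limma, adjusted p = 1.1e-06). The receptor gene RXRA rose by 0.36 ± 0.06, the corepressor subunit genes TBL1XR1 and TBL1X by 0.35 ± 0.06 and 0.30 ± 0.06, and the coactivator gene NCOA1 by 0.34 ± 0.05, with limma's adjusted p from 0.00079 to 0.0030. RXRG was below the filter.

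Genes of retinoid supply and binding changed in both directions with day. Of 20 genes 11 were tested, and 4 rose and 4 fell (median -0.08), against the same 26.3% and 22.6% of all genes. ALDH1A1 and BCO1 were tested only because of their day 21 arrays. CRABP2, which carries retinoic acid to the receptors, rose by 2.67 ± 0.24 (limma, adjusted p = 7.0e-05), BCO1, which cleaves beta-carotene, by 1.43 ± 0.16, and the retinaldehyde dehydrogenase gene ALDH1A1 by 1.23 ± 0.24 (limma, adjusted p = 0.0033). LRAT, which esterifies retinol for storage, fell by 2.31 ± 0.15 and ALDH1A3, another retinaldehyde dehydrogenase gene, by 0.55 ± 0.06, and limma's adjusted p for these 2 was at most 0.00014. By day 7 none of the 11 had risen and 3 had fallen, among them ALDH1A3 (-0.52 ± 0.10) and RDH10, the retinol dehydrogenase gene whose step opposes DHRS3 (-0.76 ± 0.15; limma, adjusted p = 0.012). Over all genes 6.68% rose and 13.9% fell in this step. Between day 7 and day 21 RDH10 rose by 0.43 ± 0.08 (limma, adjusted p = 0.0036). Its step from undifferentiated cells to day 21 was -0.32 ± 0.15 (limma, adjusted p = 0.12). RDH10 was named after its values were seen.

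Among genes known to respond to retinoic acid, several HOX and MEIS genes rose by large amounts with day. Of 27 genes 24 had a cluster of their own and 20 were tested; 12 rose and 1 fell between day 7 and day 21. HOXA2, MEIS1, PAX6, TSHZ1 and PDGFRA were tested only because of their day 21 arrays, so the count over the list carries no weight for them. Of the other 15, 7 rose. Over all genes tested 26.3% rose, a share that still includes genes tested only because of day 21 and so is not a like comparison. The 5 largest were HOXA2 at 5.19 ± 0.10, MEIS1 at 4.81 ± 0.14, SKAP2 at 4.44 ± 0.14, the eye and forebrain regulator gene PAX6 at 4.32 ± 0.11 and HOXB1 at 3.92 ± 0.11, with limma's adjusted p of at most 2.1e-07. By day 7, 2 of the 20 had risen above the undifferentiated array, MEIS2 by 1.38 ± 0.20 and ICAM1 by 0.49 ± 0.14, and 0 had fallen; over all genes 6.68% rose in this step.

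**Figure D3:**
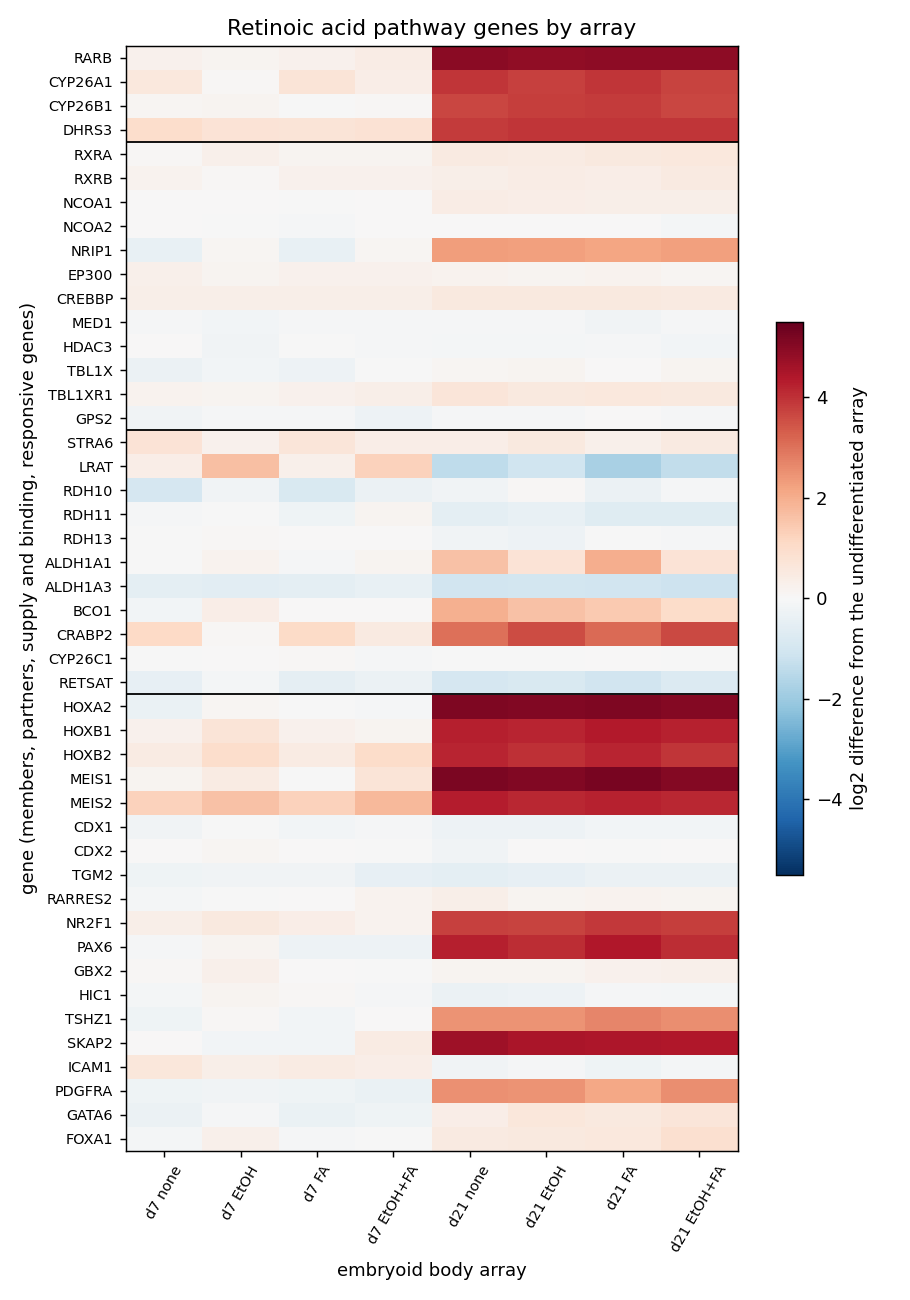
Difference of each embryoid body array from the undifferentiated array (log2, colour) for the 4 tested members and the tested genes of the 3 pathway lists, separated by black lines. RARA and RARG are not shown. Columns are the 8 embryoid body arrays. The tested members, NRIP1, CRABP2 and most HOX and MEIS genes are higher in all 4 columns of day 21, and LRAT is lower there.

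With ethanol, none of the genes of the 3 pathway lists passed the test, but some differed between matched arrays by more than the members did. These included genes that supply or carry retinoids and, from the other lists, NRIP1 among others. NRIP1 was higher by 0.50 without FA and 0.54 with FA at day 7, and differed by -0.01 and 0.05 at day 21. The medians of the 3 lists were -0.01 for partners, 0.00 for supply and binding and 0.06 for responsive genes, against 0.02 for all genes tested. LRAT was higher with ethanol by 1.29 and 0.97 at day 7 and by 0.29 and 0.43 at day 21, the first of each without FA (average 0.74 ± 0.15; limma, adjusted p = 0.077). RDH10 was higher by 0.71, 0.54, 0.24 and 0.28 in the same order (average 0.44 ± 0.08; limma, adjusted p = 0.065). CRABP2 was lower with ethanol at day 7, by -1.01 and -0.57, and higher at day 21, by 0.56 and 0.49. ALDH1A1 had the opposite order, with 0.23 and 0.22 at day 7 and -0.86 and -1.22 at day 21. The interaction of ethanol with day was 1.31 ± 0.16 for CRABP2 and -1.26 ± 0.15 for ALDH1A1, and neither passed (limma, adjusted p = 0.15 for both). ALDH1A1 was tested only because of the day 21 arrays without ethanol, 8.09 untreated and 8.44 with FA. On both ethanol arrays of day 21 (7.23 each) and on all arrays of day 7 it was below the median of all values. Its interaction therefore carries no weight, and its day 7 differences are between dim values. STRA6, the gene of a cell surface receptor for retinol uptake, was lower by -0.51 and -0.31 at day 7 and higher by 0.20 and 0.24 at day 21. RDH10, STRA6, the NRIP1 pairs and the interactions were picked out after the values were seen.

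**Figure D4:**
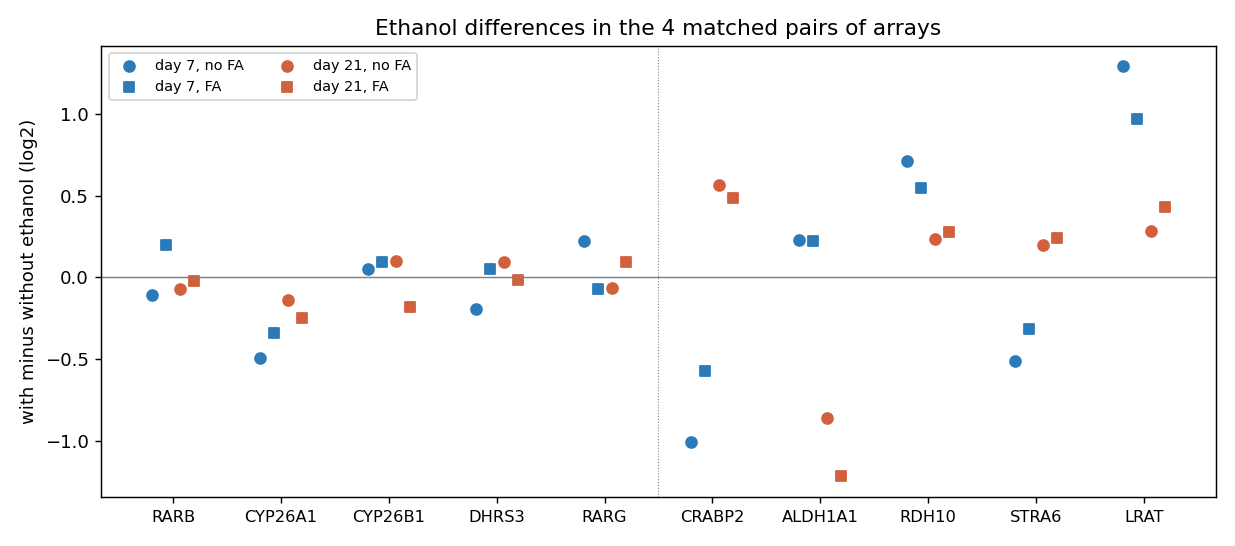
Difference between arrays with and without ethanol (log2, vertical axis) in the 4 matched pairs; blue is day 7, orange day 21, circles without FA and squares with FA, and genes of retinoid supply and binding stand right of the dotted line. CYP26A1 lies between -0.50 and -0.14 in all pairs, whereas CRABP2, ALDH1A1 and STRA6 change sign between the days. ALDH1A1 was above the median of all values only on the day 21 arrays without ethanol.

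Markers moved with day as well. NCCIT markers were bright in undifferentiated cells: the mean of 14 embryonal carcinoma and pluripotency genes was 11.3 there, 11.0 to 11.1 at day 7 and 9.78 to 10.0 at day 21, and 13 of the 14 were called lower between the days and 1, LIN28B, higher (0.66 ± 0.07); no cluster named POU5F1 or NANOG alone, so neither was analysed here. The mean of 10 neural genes was 7.43 in undifferentiated cells, 7.31 to 7.52 at day 7 and 8.34 to 8.41 at day 21, with 5 of 8 tested called higher, 3 of them tested only because of day 21, and 1, the neuronal gene STMN2, called lower (-0.62 ± 0.12). Of the 5 neural genes tested on other grounds than day 21 alone, 2 were called higher. PAX6 is in both this list and that of responsive genes. Trophoblast means were 7.57 to 7.68 at day 7 and 7.21 to 7.32 at day 21, without overlap. Mesoderm means were 7.47 to 7.61 and 7.63 to 7.77. Their highest at day 7, 7.609, was barely under their lowest at day 21, 7.626. Of the 9 mesoderm genes, 5 were below the filter. Of the 4 mesoderm genes tested, 2 were called higher and 1 lower between the days. PDGFRA, tested only because of day 21 and also in the list of responsive genes, had the largest mesoderm rise, 2.67 ± 0.09. Of the 3 trophoblast genes tested, 2 were called lower and 1, tested only because of day 21, higher. HAND1 (-0.82 ± 0.05) is in both the mesoderm and the trophoblast list and is counted as lower in each. Over all genes tested 26.3% were called higher and 22.6% lower. Endoderm means were 7.48 to 7.65 at day 7 and 7.62 to 7.70 at day 21, with overlap. Of the 5 endoderm genes tested, 2 were called higher and 0 lower, and 0 were tested only because of day 21. An array gives no true zero, so absence of these markers cannot be read. The day differences of the 4 tested members thus went with a fall of most pluripotency markers. Neural, mesoderm and trophoblast genes went both ways, and the endoderm genes that were called rose. The part of cell makeup in the members' differences was not tested. With ethanol, the neural adhesion gene NCAM1 rose by 0.47 ± 0.05 and the chemokine receptor gene CXCR4 fell by 0.53 ± 0.06 (limma, adjusted p = 0.023 for both); no other marker passed for ethanol. Neither call held up when arrays were left out, since no gene passed for ethanol once any one of 4 arrays was removed: untreated or FA at day 7, and ethanol or both additives at day 21. Of the day 7 arrays, the one with ethanol alone correlated least with its 3 companions over all clusters, at a mean r of 0.990 against 0.994 to 0.995, and without it the CYP26A1 ethanol difference was -0.23 (limma, adjusted p = 0.093).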

How the data were processed

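The deposited values were log2 expression values per transcript cluster, which per the submitters' processing notes the authors computed by RMA in Expression Console 1.3.1. RMA subtracts background, equalizes the arrays' distributions and summarizes probes. The log base was inferred from the values, which ran from 2.49 to 14.3. It compresses differences of dim genes. Clusters were named through the platform annotation: 19460 of 33297 had 1 symbol, 1754 several and 12083 none. For genes with several clusters the brightest was used. The 12254 genes with a highest value above the median were fitted with limma 3.58.1 (lmFit, eBayes) in R 4.3.3, with 4 residual degrees of freedom (3 with an interaction) and a threshold of 0.05. The residual stands in for replicate error and holds any interaction. The undifferentiated array was assumed to vary like the others. The fit was tested on simulated data. The number of arrays limits the precision. Alternatives were the filter, the cluster rule, centring, the eBayes prior, the model terms and leaving out each array. The members and lists were chosen with earlier results of these data known. By rule the text names the members, the 4 genes most like each, and the 5 genes of each pathway list with the largest day difference. It also names list genes or markers past the threshold for ethanol or FA. Other names were chosen after their values were seen, as were MEIS2, ICAM1, CYP26C1, LIN28B, STMN2, HAND1, TSHZ1 and PDGFRA. RefSeq promoter sequences were of GRCh38.p14; which genome build the array annotation used is not stated here.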

Additional observations from a re-analysis of the deposited data

How the results depend on the processing

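For day and for the step to day 21, the 4 members tested passed under the alternatives that could be fitted, and for ethanol, FA and the 3 interactions 0 did. The counts for day and for the step to day 21 carry no weight for RARB and CYP26B1, which were tested only because of day 21. For the step to day 7, 2 members passed in the main analysis and 1 to 2 with single arrays left out; CYP26A1 was lost without the untreated day 7, the FA day 7 or the ethanol and FA day 21 array. Of the fitted member values under alternatives, 482 kept their side of the threshold with their direction or moved by less than the residual spread, 3 lost their call and 7 interaction values moved further when 1 array was left out. Counts over all genes depended more on single arrays: 0 to 212 for ethanol (84 with all arrays, 54 without the filter, 148 with a trended prior, 57 with arrays centred, 0 with the other factors left out of the model, 126 with matched pairs as a block), 540 to 3833 for the step to day 7 (2520) and 0 to 1112 for ethanol with day (1). Matched pairs as a block changed no call of a member. Without the undifferentiated array no step can be computed. With 1 array per condition and dim probes near the floor, small differences of RARG cannot be resolved.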

Other observations

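The hexamer repeat that RARB and CYP26A1 share was found in promoter windows of 29 genes, of which 8 besides these 2 were tested. Of the 8, 1 was called higher at day 21, CFLAR, a regulator gene of cell death (0.23 ± 0.06), and 4 were called lower, CYB5R2, HROB, PANK2 and PHF8, with differences from -0.38 to -0.27. Their median was -0.21, against -0.01 for all genes tested, of which 26.3% were called higher and 22.6% lower. These genes were chosen by sequence, after the members' values were known.

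RARG read 7.31 with every deposited digit alike on 3 arrays, those of undifferentiated cells, of FA at day 7 and of FA at day 21. Such repeats were not rare, since 5619 of 33297 clusters (16.9%) held one value on at least 3 arrays.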
